A study of Mus musculus with 8 samples.

Results

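The cytosolic ribosomal protein genes of mouse mammary tumours were followed across 8 tumours, 4 grown in obese hosts and 4 in lean hosts. Members were chosen by name. They are the protein-coding genes whose GENCODE M21 symbol is Rpl or Rps followed by a number, together with Rpsa, Rplp0, Rplp1 and Rplp2, and without the S6 kinases. This gave 83 genes of the 50143 gene IDs in the count table, 51 of the large subunit and 32 of the small subunit. Another 6 symbols of the same pattern (Rps3a2, Rps3a3, Rps4l, Rps12l1, Rpl6l and Rpl32l) are not annotated as protein-coding and were left out.

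All hosts were female C57BL/6 mice whose ovaries had been removed at 6 weeks of age. From 2 weeks later, the obese group ate a high-fat diet (60% of calories from fat, 5.1 kcal/g) for 6 weeks and gained on average 35% in body weight, and the lean group ate a regular diet (10% of calories from fat, 3.6 kcal/g). Py230 cells, an established mouse breast adenocarcinoma line, were then injected into mammary gland 4, and the tumours were taken on day 56. Every tumour therefore derived from the same cell line, and no tumour came from a host with intact ovaries.

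A ribosome is built from ribosomal RNA and a set of ribosomal proteins, and it translates all messenger RNA of the cytosol. The genes of these proteins are among the most highly transcribed in a growing cell. Their mRNAs start with a run of pyrimidines, the 5′ terminal oligopyrimidine (TOP) tract, through which mTOR signalling and the RNA-binding protein Larp1 set their translation and stability. A few of the proteins have a paralog, a second gene for a similar protein, which is often used in particular tissues such as striated muscle or testis.

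The measurements were reads assigned to genes in whole tumours, with 25738356 to 66715063 counts per library. Levels below are given as CPM, which is each count relative to the library total scaled by edgeR's TMM factor, times 1e6. The p-values measure the spread between these 8 tumours only, since nothing in the labels states more about how the samples were kept apart. The label of a breast adenocarcinoma held in the lean tumours and less so in the obese ones: the summed level of 9 epithelial markers was 1895 to 2818 CPM in lean tumours and 66.2 to 711 CPM in obese tumours, and 6 of the 9 fell. Of 9 mesenchymal markers 6 rose and 1 fell, with summed levels of 667 to 1130 CPM in lean and 5069 to 11636 CPM in obese tumours. All 5 tested B cell markers fell, and the summed level of the 7 listed was 122 to 214 CPM in lean and 3.13 to 19.4 CPM in obese tumours. Of 8 T and NK cell markers, 7 were tested, 6 fell and none rose, from 79.5 to 210.5 CPM summed in lean tumours to 19.3 to 66.0 CPM in obese ones. Trac, Ighm and Igkc were listed at 0 in every tumour. The groups thus differed in the levels of cell type markers, and the part of that difference in the ribosomal protein counts was not tested. In whole tumours, fewer cells of a type and less RNA per cell cannot be told apart.

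Ribosomal protein mRNA as a whole took a larger share of the counts in obese tumours. The 83 genes together held 4.38, 4.13, 4.29 and 3.99% of all counts in obese tumours 1 to 4 and 3.69, 2.87, 3.32 and 3.32% in lean tumours 1 to 4. These are 4.20 ± 0.18% and 3.30 ± 0.34% (SD, n = 4 each), and the groups did not overlap. Obese tumour 4 was the lowest of its group and lean tumour 1 the highest of its own, so the gap between the groups was narrow next to the spread among lean tumours. Large-subunit and small-subunit genes contributed about equally in every tumour, with 0.942 to 1.03 counts of the large for each count of the small.

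**Figure D1:**
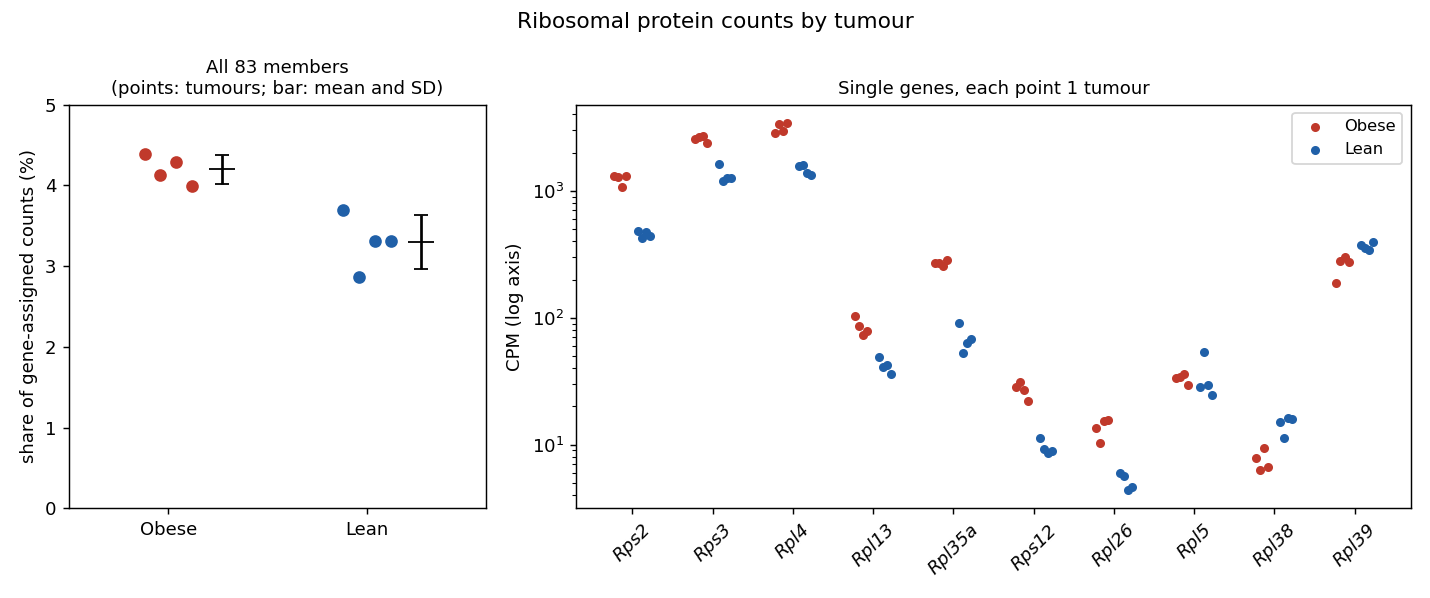
Left, share of all gene-assigned counts (percent) held by the 83 genes in each tumour, with the group mean and SD. Right, CPM on a log axis of 10 genes, each point 1 tumour. The share is 3.99 to 4.38% in obese and 2.87 to 3.69% in lean tumours, and Rps2, Rpl35a and Rps12 lie higher in all obese tumours while Rpl38 and Rpl39 lie lower.

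Gene by gene, the increase was uneven. Of the 82 genes with enough counts to test, 36 rose, 6 fell and 40 did not pass edgeR's quasi-likelihood test at an adjusted p of 0.05. The 42 called genes are 51.2% of those tested, below the 59.2% called among all 14887 genes tested, since most genes differed between these groups. The direction was less even than in the rest: 43.9% of the members rose and 7.32% fell, against 30.9% and 28.4% of all genes tested. With upper quartile scaling, which lowers the median of all genes from −0.04 to −0.25 on the log2 scale, 28 members rose and 8 fell, and 24.3% and 34.6% of all genes did. The members' median stood 0.34 above that of all genes with either scaling. Groups did not overlap for 38 members that were higher and 5 that were lower in obese tumours, whereas 57.0% of all genes tested did not overlap, 28.9% higher and 28.1% lower. The median log2 fold change of the members was 0.30, and that of all genes tested was −0.04. No set test was made, so these figures describe the list and do not set it apart from others of its size.

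Changes of ribosomal protein genes were also small beside those of other genes. Their log2 fold changes had an interquartile range of −0.04 to 0.70, against −1.17 to 0.73 for all genes tested. Only 12 of the 82, or 14.6%, changed by 2-fold or more in the estimate, compared with 45.8% of all genes. All genes tested include many with low counts, whose estimates vary more, and genes of like level were not compared. The shift was seen in both subunits: 21 of 50 large-subunit genes rose and 4 fell (median 0.27), and 15 of 32 small-subunit genes rose and 2 fell (median 0.51). Without the paralogs, 35 of 77 rose and 3 fell, with a median of 0.35. The order of the genes by level was nearly the same in all tumours, with Spearman correlations over these 77 genes of 0.978 to 0.997 within groups and 0.954 to 0.986 between them. Mean levels per kilobase of coding sequence spanned 2233-fold among these genes, and such a span alone gives high rank correlations.

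**Figure D2:**
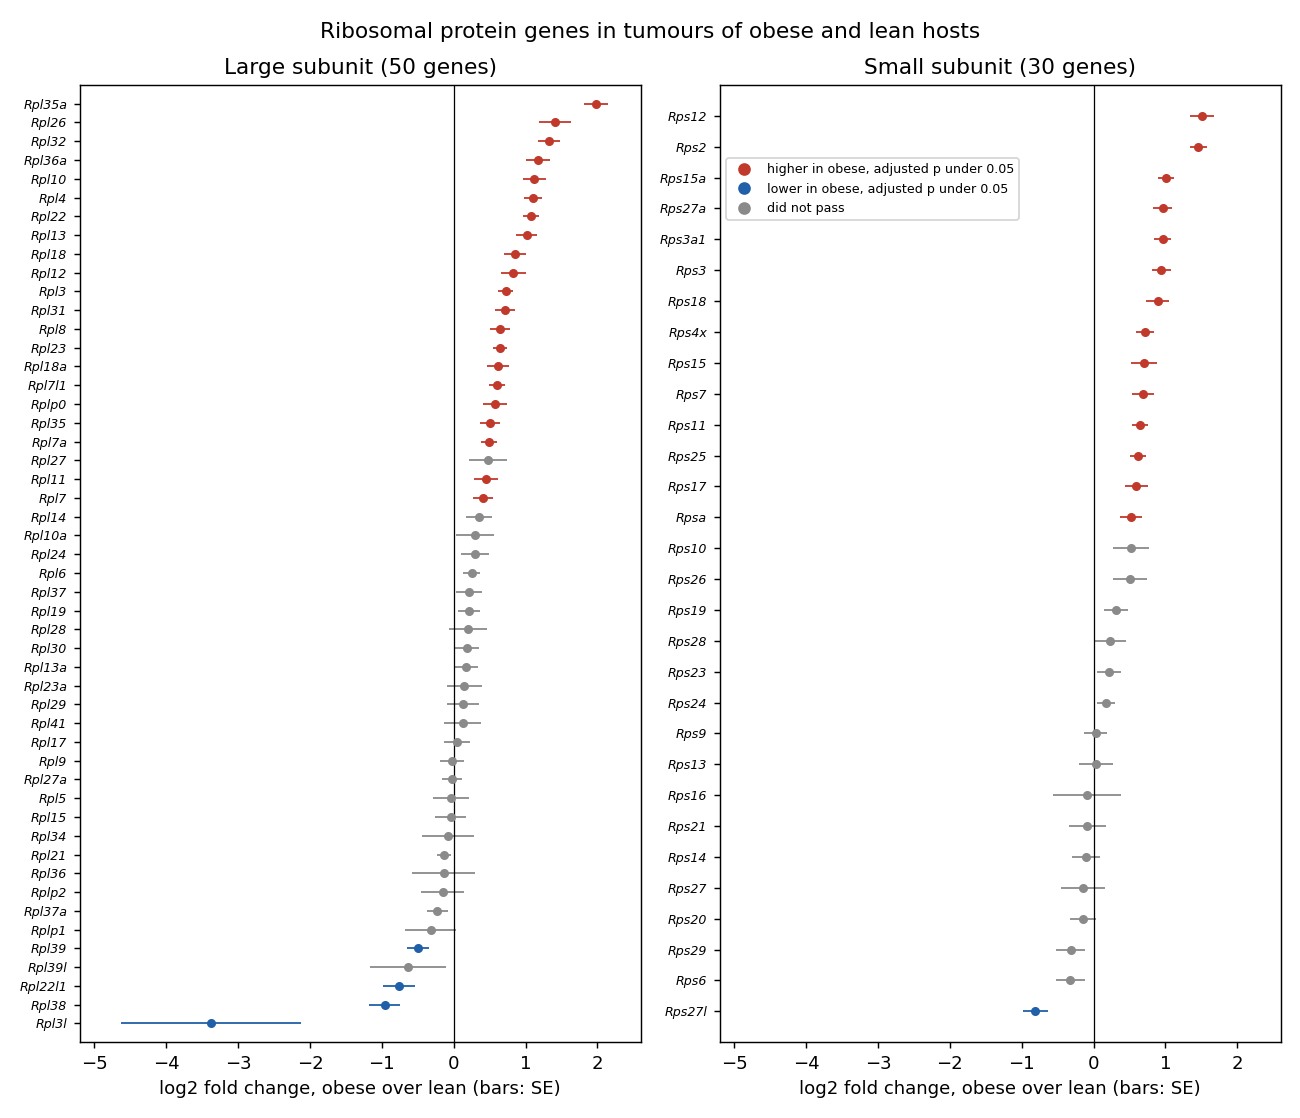
Log2 fold change of 80 of the tested genes in obese over lean tumours, with bars of 1 SE, for the large subunit (left, 50 genes) and the small subunit (right, 30 genes). Colours give the call at an adjusted p of 0.05: of those shown, 35 are higher, 5 lower and 40 did not pass.

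Proteins that shape the path of the mRNA through the small subunit included some of the clearest rises. Rps2, at the mRNA entry channel, stood at 1315, 1293, 1080.2 and 1306 CPM in obese tumours and at 481, 422, 474 and 439 CPM in lean ones. Every obese tumour was thus more than 2-fold above every lean one, with obese tumour 3 the lowest of its group. The log2 fold change of Rps2 was 1.46 ± 0.11 (SE), with an adjusted p of 0.000172 by edgeR. Rps3, its neighbour at the entry channel and also a DNA repair factor, was measured at 2575, 2634, 2704 and 2393 CPM in obese and 1629, 1197, 1259 and 1272 CPM in lean tumours. The groups of Rps3 did not overlap, lean tumour 1 lay closest to the obese ones, and the log2 fold change was 0.94 ± 0.13 (edgeR, adjusted p 0.00108). Rps15, whose tail reaches into the decoding site, rose from 933 ± 205 to 1523 ± 161 CPM (edgeR, adjusted p 0.0120). Rps23, in the decoding centre itself, was at 9.82 ± 0.53 CPM in obese and 8.46 ± 0.57 CPM in lean tumours. Its groups did not overlap, but its log2 fold change of 0.21 did not pass (edgeR, adjusted p 0.302).

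Around the tunnel through which the new protein leaves the large subunit, 4 of 8 genes rose and 1 fell, where 30.9% and 28.4% of all genes tested did. Rpl4, which lines the tunnel, was at 2877, 3366, 2951 and 3422 CPM in obese tumours and at 1576, 1594, 1375 and 1323 CPM in lean ones, a log2 fold change of 1.10 ± 0.13 (edgeR, adjusted p 0.000452). Rpl26, at the tunnel exit and known as a regulator of p53 mRNA translation, was at 13.5, 10.3, 15.2 and 15.7 CPM in obese and 5.99, 5.63, 4.39 and 4.63 CPM in lean tumours. Neither gene had an obese tumour as low as the highest lean one. Rpl31 and Rpl35, also at the exit, rose by 0.72 and 0.50 on the log2 scale. Rpl31 lost its call without lean tumours 1 and 4, and Rpl35 lost it there and with upper quartile or library-size scaling (0.29 and 0.32). Rpl39, the small protein at the narrow end of the tunnel, went the other way, with 187, 278, 301 and 274 CPM in obese and 374, 357, 342 and 398 CPM in lean tumours. Obese tumour 1 was the lowest of all, the groups did not overlap, and Rpl39 fell by 0.50 ± 0.16 on the log2 scale (edgeR, adjusted p 0.0260). The fall of Rpl39 was lost in 5 of 20 other settings, both offsets for GC content among them. Rpl17, Rpl19 and Rpl23a did not pass, with log2 fold changes of 0.05, 0.21 and 0.14.

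The stalk that recruits elongation factors was split. Rplp0, which anchors the stalk, rose from 1836 ± 324 to 2734 ± 323 CPM, and Rpl12, at its base, from 21.2 ± 4.1 to 37.7 ± 4.6 CPM (edgeR, adjusted p 0.0178 and 0.00555). Both calls were lost without lean tumours 1 and 4, and that of Rplp0 also with upper quartile scaling (0.36; edgeR, adjusted p 0.0966) and library-size scaling (0.39; edgeR, adjusted p 0.0621). The acidic proteins that form the stalk itself did not pass. Rplp1 was measured at 1236, 744, 674 and 537 CPM in obese and 1045, 487, 1171 and 1287 CPM in lean tumours, and Rplp2 at 376, 301, 271 and 257 CPM in obese and 313, 162, 466 and 400.4 CPM in lean tumours. Both genes were highest among obese tumours in tumour 1 and lowest of all in lean tumour 2. Their log2 fold changes were −0.32 ± 0.35 and −0.16 ± 0.30. Whether the fold change of Rplp1 differs from that of Rplp0 was not tested.

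Rpl5 and Rpl11 enter the large subunit together with the smallest ribosomal RNA and, when free, bind Mdm2. Rpl11 was at 37.8, 33.9, 27.8 and 31.3 CPM in obese and 28.4, 18.8, 24.5 and 24.2 CPM in lean tumours. The groups overlapped by a little, the log2 fold change was 0.45 ± 0.17 (edgeR, adjusted p 0.0452), and 12 of 20 other settings lost the call. Rpl5 was at 33.2 ± 2.7 CPM in obese and 34.1 ± 13.5 CPM in lean tumours, the latter with 54.1 CPM in lean tumour 2, and did not pass (edgeR, adjusted p 0.909).

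Both of the largest rises, those of Rpl35a and Rps12, and several others fell outside these groups. Rpl35a, a large-subunit protein whose human gene is mutated in Diamond-Blackfan anaemia, stood at 268, 269.9, 257 and 286 CPM in obese tumours and at 90.1, 52.5, 63.3 and 68.0 CPM in lean ones. The 4 obese tumours lay close together and far from the lean ones, and the log2 fold change of 1.98 ± 0.17 was the largest of the members (edgeR, adjusted p 0.000212). Rps12, a small-subunit protein known from cell competition, was at 28.4, 31.1, 26.8 and 22 CPM in obese and 11.2, 9.20, 8.65 and 8.98 CPM in lean tumours, a log2 fold change of 1.51 ± 0.17 (edgeR, adjusted p 0.000449). Rpl32, one of the most abundant members, was at 2187, 2753, 2712 and 3049 CPM in obese and 1278, 929, 1030.5 and 1032 CPM in lean tumours. Its log2 fold change was 1.33 ± 0.15 (edgeR, adjusted p 0.000498), and lean tumour 1 was the highest of the lean ones. Rpl36a, Rpl10, Rpl22, Rpl13 and Rps15a rose by 1.01 to 1.17 on the log2 scale, each without overlap. Rps27a, which encodes ubiquitin fused to a ribosomal protein, rose from 16 ± 0.57 to 31.2 ± 3.7 CPM, a log2 fold change of 0.96 ± 0.13 (edgeR, adjusted p 0.00103), and Rps3a1 and Rps4x rose by 0.96 and 0.71.

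Rpl38, known for its part in the translation of Hox mRNAs, fell. It was at 7.80, 6.31, 9.38 and 6.65 CPM in obese and 15.2, 11.3, 16.2 and 16 CPM in lean tumours, a fall of 0.96 ± 0.22 on the log2 scale (edgeR, adjusted p 0.00702). The groups were apart, with obese tumour 3 nearest to the lean ones. The call was lost with offsets for GC content and coding length and without lean tumours 1 and 4.

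The 39 core genes that did not pass included some of the most abundant ones per kilobase of coding sequence. By that measure, the highest mean levels over all tumours were those of Rpl41, Rpl32, Rps14, Rps15 and Rps3. Counts per gene are not limited to the coding sequence, so the measure favours genes with a short one. In CPM, the means of Rpl41 lay below those of Rpl32 (2675 in obese, 1067 in lean) and Rps3 (2577 and 1339), which rose. Rpl41, whose coding sequence is the shortest of all, was at 945 ± 281 CPM in obese and 865 ± 228 CPM in lean tumours, and Rps14, a small-subunit protein lost in human 5q syndrome, at 1460.4 ± 314 and 1576 ± 272 CPM. Their log2 fold changes were 0.13 ± 0.26 and −0.11 ± 0.20. Rpl41 was called higher with offsets for GC content and exon length (0.72; edgeR, adjusted p 0.0170) and with coding length in place of exon length (0.97; edgeR, adjusted p 0.00337). The spread among tumours of a group differed widely between genes. Its SD on the log2 scale, pooled over both groups, had a median of 0.19 for the 35 core genes that rose and 0.27 for the 39 that did not pass. Spread within groups also enters the test that sets the calls. Less spread in called genes, and no call for the most variable ones, is thus in part built in.

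This spread followed a common pattern. The 10 core genes with the largest spread (Rps16, Rpl36, Rplp1, Rpl34, Rplp2, Rps21, Rps10, Rpl10a, Rpl41 and Rpl5) all failed to pass, and in 9 of them obese tumour 1 was the highest of the obese and lean tumour 2 the lowest of the lean. Rps16, at the head of this list, was at 67.3, 32.2, 29.6 and 21.9 CPM in obese and 40.0, 14.3, 54.1 and 51.9 CPM in lean tumours. Rpl36 was at 196, 146, 104 and 79.5 CPM in obese and 129.6, 54.1, 224 and 172 CPM in lean tumours. Both genes ranged more than 3-fold among lean tumours, and the groups overlapped. Rpl5 was the exception, with lean tumour 2 the highest of its group. Over all 77 core genes, obese tumour 1 was the highest of its group for 41, lean tumour 2 the lowest of its group for 49, and both held for 36.

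The deviations of these 2 tumours from their group means moved with base composition. Across the 77 genes, which share the same 8 libraries, the deviation was correlated with the GC content of the whole transcript. The Spearman correlation was 0.44 for obese tumour 1 and −0.59 for lean tumour 2. Obese tumour 1 was also the shallowest library, with 25738356 counts, and had the highest summed level of 5 neutrophil markers, 494.7 CPM against 20.5 to 62.4 CPM in the other 7 tumours. The part of depth and of these markers in the pattern was not tested. With offsets for GC content and exon length in the fit, 48 members rose and 4 fell. The median log2 fold change was 0.65 for the members and −0.06 for all genes. With coding length in place of exon length, an alternative chosen after seeing the data, 49 rose and 2 fell. The medians were again 0.65 and −0.06. The shares of all genes called with these offsets are not given here, so the counts alone do not set the members apart.

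**Figure D3:**
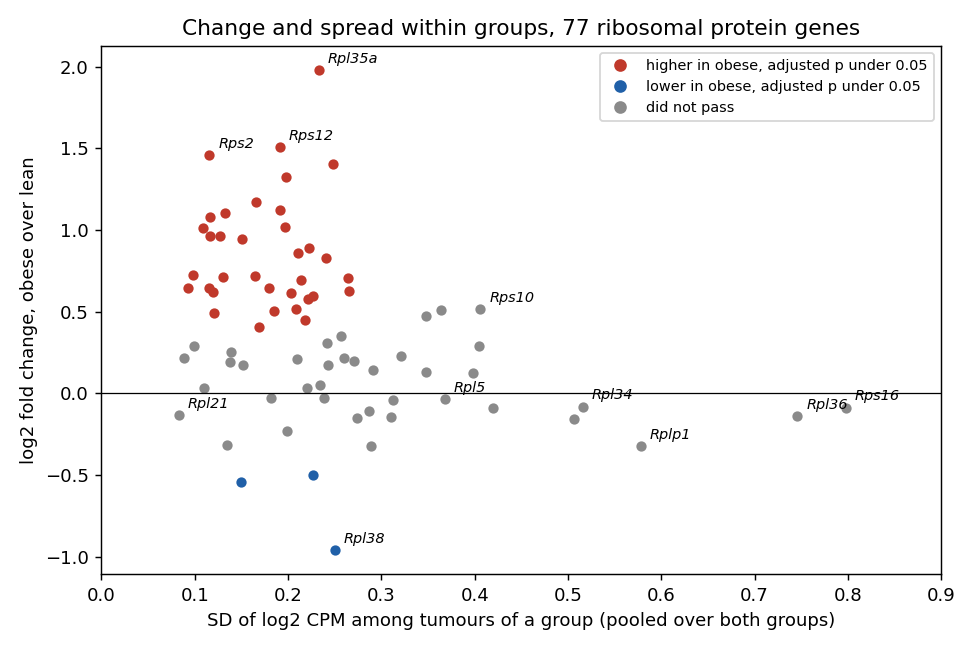
Log2 fold change of 77 core ribosomal protein genes (vertical) against the SD of log2 CPM among tumours of a group (horizontal), coloured by call. All genes that rose have an SD of at most 0.27, and Rps16, with 0.80, has the largest. Spread within groups enters the test that sets the calls.

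The paralogs differed among themselves. Of the 6 paralogs, Rpl10l had a count of 0 in all tumours, which allows up to 3 counts or 0.0450 to 0.117 CPM. Rpl7l1, a factor of large-subunit assembly, rose by 0.61 ± 0.11 on the log2 scale from 149.8 ± 13.4 to 228 ± 16 CPM (edgeR, adjusted p 0.00280). Rpl22l1, Rps27l and Rpl3l fell. Rpl39l, known from testis, was below 1 CPM in every tumour and did not pass, with 5 to 32 counts per library.

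The clearest contrast between a parent and its paralog was that of Rpl22 and Rpl22l1. The Rpl22 protein is known to bind Rpl22l1 mRNA and to lower its level. Rpl22 was at 628, 700.2, 594 and 713 CPM in obese and 342, 288, 316 and 302 CPM in lean tumours, whereas Rpl22l1 was at 43.4, 71.4, 89.3 and 54.7 CPM in obese and 106, 128, 105 and 101 CPM in lean ones. Each gene separated the groups completely, in opposite directions: Rpl22 rose by 1.08 ± 0.11 and Rpl22l1 fell by 0.76 ± 0.22 on the log2 scale (edgeR, adjusted p 0.000334 and 0.0187). The call of Rpl22l1 was lost without lean tumours 1 and 4 and without obese tumour 4. Per kilobase of coding sequence, the level of Rpl22l1 was 0.0725, 0.107, 0.158 and 0.0806 times that of Rpl22 in obese tumours and 0.325, 0.467, 0.348 and 0.350 times in lean ones. The log2 ratio was lower in obese tumours by 1.89 (−1.89 ± 0.28, SE), with an exact two-sided permutation p of 0.0286, the smallest that 70 assignments of the tumours allow, and 0.143 after adjustment over the 5 ratios tested. The adjusted value cannot pass 0.05 with these numbers unless several ratios reach that smallest p.

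The coding sequences of this pair, shown because they bear on whether reads can be told apart, come from Rpl22 at chr4:152325742-152334071 and Rpl22l1 at chr3:28805436-28807424 (GRCm38, both plus strand). The first 180 bases of each follow, from GENCODE M21 transcripts, with capitals where the aligned bases of the pair differ or are missing in the other gene.
Rpl22: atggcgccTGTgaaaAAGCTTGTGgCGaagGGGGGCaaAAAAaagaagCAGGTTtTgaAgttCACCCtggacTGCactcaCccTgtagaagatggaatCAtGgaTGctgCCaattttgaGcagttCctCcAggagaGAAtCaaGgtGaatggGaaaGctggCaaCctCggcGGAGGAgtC
Rpl22l1: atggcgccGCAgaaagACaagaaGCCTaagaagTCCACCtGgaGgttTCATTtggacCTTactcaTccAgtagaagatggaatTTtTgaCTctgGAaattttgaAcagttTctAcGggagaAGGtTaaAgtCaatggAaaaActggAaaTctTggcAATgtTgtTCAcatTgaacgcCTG
The aligned sequences were identical in 70.2% of 366 aligned coding bases, with no identical stretch longer than 26 bases. None of the 310 stretches of 75 bases in the Rpl22 coding sequence occurred in Rpl22l1. Against all other genes, however, Rpl22 shared 9.0% of its stretches and Rpl22l1 72.3%. Of the 292 stretches of Rpl22l1, 208 occur in Gm15421, annotated as a transcribed processed pseudogene. The level of Rpl22l1 and its ratio to Rpl22 are therefore uncertain.

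Rps27l, a paralog of Rps27 known as a target of p53, fell from 257 ± 27.7 to 146 ± 30.4 CPM. It stood at 145, 108, 181 and 153 CPM in obese and 282, 219, 272 and 255 CPM in lean tumours, with no overlap. The log2 fold change was −0.81 ± 0.17 (edgeR, adjusted p 0.00546), and of the 6 falls it is the only one called in all 20 other settings. Rps27 itself was listed at 1.72 ± 0.31 CPM in obese and 1.90 ± 0.44 CPM in lean tumours, with a coding sequence of the same length. The log2 ratio of Rps27l to Rps27 was lower in obese tumours by 0.70 (−0.70 ± 0.31, SE; exact permutation p 0.0857, adjusted 0.143). The coding sequences of this pair differ in 60 of 252 bases, and the first 180 are shown for the same reason, with the differing bases in capitals.
Rps27: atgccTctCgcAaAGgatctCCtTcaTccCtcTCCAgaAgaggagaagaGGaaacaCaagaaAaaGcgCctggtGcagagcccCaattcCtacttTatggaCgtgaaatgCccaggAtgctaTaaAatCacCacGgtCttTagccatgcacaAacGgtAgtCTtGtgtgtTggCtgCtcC
Rps27l: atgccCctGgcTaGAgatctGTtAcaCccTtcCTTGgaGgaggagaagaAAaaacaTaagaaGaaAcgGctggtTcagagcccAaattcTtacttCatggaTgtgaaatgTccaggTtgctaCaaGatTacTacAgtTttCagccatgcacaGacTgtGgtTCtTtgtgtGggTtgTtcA
No stretch of 75 bases was common to this pair, yet all 178 such stretches of Rps27 occur in Rps27rt, another annotated coding gene.

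Rpl3l, the form of Rpl3 known from striated muscle, was at 0.124, 0.214, 0.677 and 0.240 CPM in obese tumours and at 7.66, 0.115, 0.410 and 5.18 CPM in lean tumours. Lean tumours 1 and 4 alone were high, and the other 2 lean tumours overlapped the obese ones. The same 2 tumours had the highest summed level of 6 skeletal muscle markers, 1455 and 1329 CPM, where the other 6 tumours had 2.02 to 208 CPM. Rpl3l passed the test with a log2 fold change of −3.37 ± 1.25 (edgeR, adjusted p 0.0463), but 11 of 19 other settings lost the call. Without lean tumours 1 and 4, a setting chosen after seeing the data, the log2 fold change was 0.22 (edgeR, adjusted p 0.856).

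**Figure D4:**
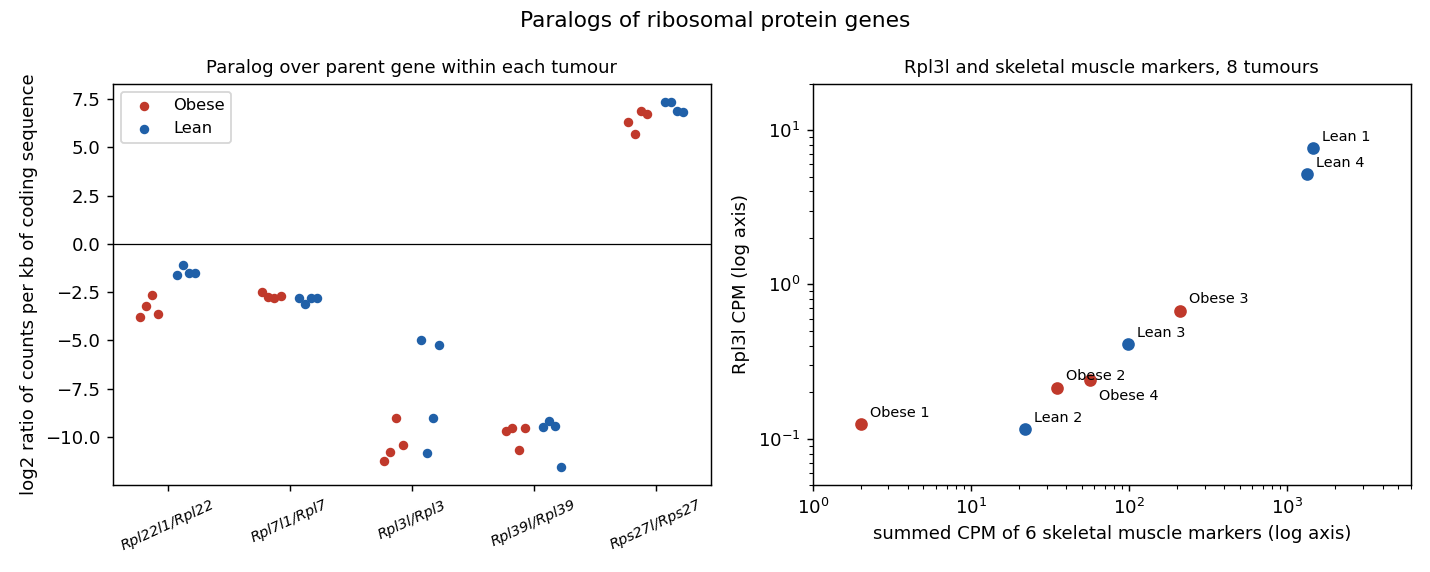
Left, log2 ratio of each paralog to its parent gene per kilobase of coding sequence in each tumour. Right, Rpl3l CPM against the summed CPM of 6 skeletal muscle markers, both on log axes, for the 8 tumours: lean tumours 1 and 4 are the highest in both. The ratio of Rpl22l1 to Rpl22 is the only one of the 5 in which the groups do not overlap.

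Ribosomal protein genes are known for many processed pseudogenes with nearly the same sequence. The table holds 272 pseudogenes named after a ribosomal protein gene, and 59 of the 83 members have at least 1. For each member, the share of 75-base stretches of its coding sequence that also occur in a transcript of another gene was counted. Rps3 had none, whereas Rpl26 shared 71.2% and Rps12, Rps13, Rps27 and Rpl38 shared all of theirs. Among other rises named above, Rpl35a shared 70.7% and Rps2 76.1%, and Rpl10, Rpl13, Rpl36a and Rps27a shared all. Rpl32, Rpl22 and Rpl4 shared 7.9, 9.0 and 10.5%. Levels were lower where sequence was shared: across 77 core genes the Spearman correlation of mean CPM per kilobase with this share was −0.75. The median level was 2172 CPM per kilobase for the 9 genes that share less than 25%, 1745 for the 17 genes from 25 to 75%, and 231 for the 51 genes above that. Rps13 and Rps27, at 2.47 and 1.72 CPM in obese tumours, had all their stretches in other genes, and levels of such genes, and comparisons of level between members, are therefore uncertain.

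Rises were also found among genes that share little sequence. Of the 9 core genes under 25%, 8 rose and none fell, with a median log2 fold change of 0.71, against 6 rises and 1 fall of 17 genes (median 0.19) and 21 rises and 2 falls of 51 (median 0.29) in the other bins. These bins leave out the paralogs, of which Rpl3l and Rpl39l share no stretch. With the paralogs and other bounds, 6 members rose and 1 fell of 8 under 10%, 4 rose and 1 fell of 10 from 10 to 50% (median −0.03), and 26 rose and 4 fell of 64 above that. Of all genes tested, 30.9% rose and 28.4% fell. All bins were set with results in view, and no test was made between them. Rps3, Rpl32, Rpl8, Rpl22 and Rpl4, at a share of 0 to 10.5%, were among the rises. When the counts of the named pseudogenes were added to their parent genes, 37 members rose and 6 fell. The median log2 fold change was then 0.30 for the members and −0.04 for all genes tested. The shares of all genes called in that setting are not given here, so these counts alone do not set the members apart. Adding the pseudogene counts reached only the 59 of 83 members that have a pseudogene named after them. Other matching copies were not added: Rpl11, with all its stretches in other genes, matches 8 pseudogenes and has 0 named after it. The part of those other copies was not tested. In addition, 19 tested members overlap a gene on the other strand, among them Rps2, Rpl12, Rpl22l1, Rpl31, Rpl32, Rpl35, Rps27a and Rpl5, and since the strand setting of the counting is not given in the sources used here, reads of the 2 genes cannot be told apart for these.

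**Figure D5:**
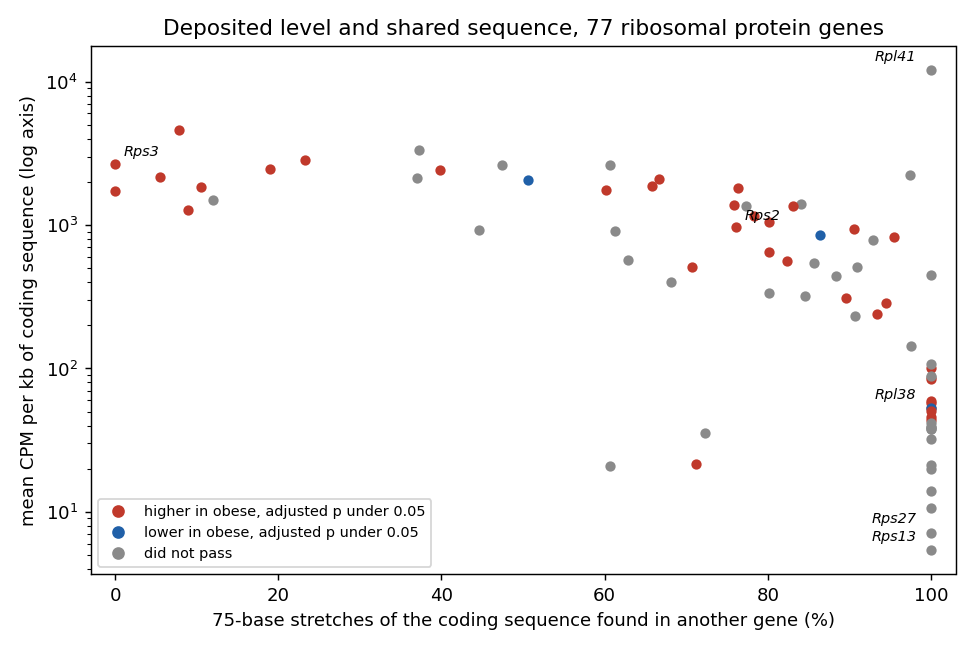
Mean CPM per kilobase of coding sequence over all 8 tumours (log axis) of 77 core genes against the percentage of 75-base stretches of the coding sequence found in another gene, coloured by call. Genes at 100% reach down to 5.40 CPM per kilobase (Rps13), and no gene under 25% lies below 1264. Rpl41, with the shortest coding sequence, has only 1 such stretch.

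Most members are short, and 58 of the 82 tested have under 600 coding bases. Of these 58, 36.2% rose and 6.90% fell, with a median log2 fold change of 0.21. Among 1777 other coding genes of that length, 21.4% rose and 35.1% fell, with a median of −0.32. In the class of 600 to 1200 coding bases, 13 of 21 members rose and 1 fell (median 0.52), and 29.0% of 4136 other genes rose and 30.5% fell. The difference in direction between members and other genes of like length was thus in the same sense in both classes, and it was not tested.

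Promoters of the family carried a pyrimidine run near the start, and the letters CCGGAAG, more often than other promoters, with no clear division by response. RefSeq start sites on GRCm38.p6 were matched by symbol for 63 of the 83 members, taking for each the start nearest to the 5′ end of its transcript, and the window ran from 250 bases before to 50 bases after the start. A C followed by at least 6 bases that are each C or T, within 25 bases of the start on the transcribed strand, occurred in 61.9% of the members and 24.8% of 32776 other promoters. The letters CCGGAAG, on either strand, occurred in 38.1% and 8.8%. CACGTG, a palindrome, was at 7.9% and 7.1%. Among the matched members, the pyrimidine run was found in 55.6% of the 27 that rose, 80.0% of the 5 that fell and 66.7% of the 30 that did not pass. The windows below, from 70 bases before to 30 after the start, show 3 of the largest rises and the most stable fall, limited to genes whose RefSeq start equals the 5′ end of the GENCODE transcript used; capitals mark the pyrimidine run and CCGGAAG on either strand.
Rpl35a (chr16:33056383-33056482, plus strand): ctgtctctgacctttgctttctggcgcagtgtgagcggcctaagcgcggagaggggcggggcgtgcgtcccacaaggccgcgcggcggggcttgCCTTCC
Rps2 (chr17:24719993-24720092, plus strand): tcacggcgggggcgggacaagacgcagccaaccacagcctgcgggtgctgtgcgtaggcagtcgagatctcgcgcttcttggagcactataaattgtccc
Rpl13 (chr8:123102280-123102379, plus strand): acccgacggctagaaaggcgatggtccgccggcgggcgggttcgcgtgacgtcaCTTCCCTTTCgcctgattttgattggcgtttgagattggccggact
Rps27l (chr9:66946016-66946115, plus strand): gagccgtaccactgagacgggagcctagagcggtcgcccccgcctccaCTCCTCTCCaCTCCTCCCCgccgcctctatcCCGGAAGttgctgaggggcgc
Rps27l, which fell, carries both features near its start, and Rps2, which rose, carries neither within the window shown. The run of Rpl35a begins at the end of its window, after the start, and goes on beyond it. The marked runs of Rpl13 and Rps27l lie before the start. A run counted here is therefore not shown to be a TOP tract, which begins at the first base of the mRNA. A match of letters is not a binding site, and the absence of one says only that these letters are not in the window.

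Most other TOP mRNAs, many of them of the translation machinery, rose as well. Of 21 such genes, 19 rose (90.5%) and 1 fell (4.76%), against 30.9% and 28.4% of all genes tested, with a median log2 fold change of 0.77. Nap1l1, a histone chaperone, and Pabpc1, which binds poly(A) tails, rose by 2.01 ± 0.19 and 1.94 ± 0.18, Pabpc1 from 792 ± 59.2 to 3027 ± 642 CPM (edgeR, adjusted p 0.000270). Eef1a1, the elongation factor that brings aminoacyl-tRNA, rose from 6077 ± 698 to 14712 ± 1314 CPM, and Eif3e, a subunit of initiation factor eIF3, by 1.32 ± 0.15. Tpt1, a small TOP mRNA with its own pseudogenes, was the one that fell, from 129.7 ± 66.9 to 66.0 ± 15.5 CPM with overlap (edgeR, adjusted p 0.0497).

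Genes that build ribosomes had a larger median change. Of 42 ribosome biogenesis genes, 37 rose (88.1%) and none fell, against 30.9% and 28.4% of all genes tested, with a median log2 fold change of 1.33, compared with 0.30 for the ribosomal proteins. Nop2, a methyltransferase of ribosomal RNA, rose from 66.7 ± 10.9 to 351 ± 74.3 CPM and Wdr43, a factor of early small-subunit assembly, from 74.7 ± 7.1 to 266 ± 33.8 CPM (edgeR, adjusted p 0.000200 and 0.000159). Rrp1b and Fbl, the latter the methyltransferase of box C/D particles, rose by 2.14 ± 0.18 and 1.35 ± 0.13. Of 8 chaperones and importers of ribosomal proteins, 5 rose (62.5%) and 1 fell (12.5%): the importin Ipo7, Heatr3, Pdcd2 and Grwd1 rose by 1.79, 1.24, 0.90 and 0.84, Pdcd2l by 0.57, and Tsr2, the escort of Rps26, fell by 0.78 ± 0.16. Rps26 itself did not pass (log2 fold change 0.51 ± 0.24, edgeR, adjusted p 0.0906).

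Of 13 regulators of TOP mRNAs 4 rose and 2 fell, so that the share that rose, 30.8%, was near the 30.9% of all genes tested. Eif4ebp1, which restrains cap-dependent initiation, rose from 36.2 ± 8.5 to 154 ± 36.2 CPM and Larp1, the TOP-binding protein, from 151.5 ± 9.4 to 413 ± 104.7 CPM (edgeR, adjusted p 0.000408 and 0.000957). Eif4ebp2 and Mtor, the kinase of the pathway, rose by 0.84 ± 0.15 and 0.99 ± 0.19. Rps6ka1, a kinase of ribosomal protein S6, and Mlst8, a subunit shared by the mTOR complexes, fell by 1.76 ± 0.33 and 0.70 ± 0.18. Of the ribosomal genes that the name pattern leaves out, Fau and Rpl36al did not pass, with log2 fold changes of 0.80 and 0.23, and Rack1 was listed at 0 in all 8 tumours.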

How the data were processed

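The deposited table holds raw counts of reads per gene ID for the 8 tumours. Per the labels' protocols, RNA was extracted from snap-frozen tumours with RNeasy columns and made into libraries with the TruSeq Stranded RNA HT kit. Per the submitters' processing notes, the authors used CASAVA 1.8, bcl2fastq 2.18.0.12, cutadapt 1.12, STAR 2.5.2b and HTSeq with the mouse build mm10. The annotation, the strand setting and the treatment of reads that map to several places are not given in the sources used here.

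Gene IDs were named from GENCODE M21, which matched 49412 of 50143. All genes were fitted together in R 4.3.3 with edgeR 4.0.16 (filterByExpr with a minimum count of 10 and total of 15, TMM, robust quasi-likelihood F test), and p-values were adjusted by Benjamini-Hochberg over 14887 genes with a threshold of 0.05. Each SE of a log2 fold change is derived from that fit. Depth of 25.7 to 66.7 times 1e6 counts sets the precision, and 3 counts correspond to 0.0450 to 0.117 CPM. This limit covers counting error only. Paralog ratios were taken per kilobase of coding sequence with 0.5 added to each count, where the plan named exon length, and compared by an exact two-sided permutation test. Alternatives used limma 3.58.1, DESeq2 1.42.0, other scalings, filters and offsets, a pseudocount of 2, and each tumour left out. The fits were tested on simulated data, where most genes set to differ by 2-fold were not called. Far fewer genes differed there than were called in these tumours. A gene that did not pass is not shown to be unchanged.

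Members and lists were chosen with earlier results of these data known. The text names all paralogs, the 10 largest rises and all falls, up to 4 members of each role by smallest p, the 5 highest levels per kilobase, and up to 4 genes of each other list. A few further members were named after their values were seen, to complete a role, a pair or a pattern. Promoters came from RefSeq on GRCm38.p6, and coding sequences from GENCODE M21 transcripts. Some members that enter the counts are not reported here by name.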

Additional observations from a re-analysis of the deposited data

Results flagged for a closer look

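In 70 groups of 4 values, for the named genes and the paralog ratios, 5 had a tumour that stood apart from the other 3, where chance alone gives about 1 in 20. Obese tumour 3 accounts for 2 of them. Rps2 was at 1080.2 CPM there and at 1293 to 1315 CPM in the other obese tumours, and the log2 ratio of Rpl39l to Rpl39 was −10.68 there and −9.69 to −9.53 in the others. For Rps2 this value lay nearer to the lean tumours. Rpl36a was at 30.4 CPM in obese tumour 4 and at 22.7 to 24 CPM in the other 3, all above the lean tumours. The log2 ratio of Rpl39l to Rpl39 was −11.55 in lean tumour 4 and −9.47 to −9.16 in the other lean tumours, and it rests on 7 counts of Rpl39l. The log2 ratio of Rpl7l1 to Rpl7 was −3.11 in lean tumour 2 and −2.82 to −2.79 in the other lean tumours.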

How the results depend on the processing

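Over the main setting and 20 others, 26 to 49 members rose and 1 to 12 fell, and the median log2 fold change of the members stayed above 0 and above that of all genes, by 0.24 to 0.71. That median was 0.0886 after upper quartile scaling, 0.118 after scaling by library size alone, 0.196 with limma-voom quality weights, 0.648 with offsets for GC content and exon length and 0.651 with offsets for GC content and coding length. The number that fell was 12 with the quality weights, 2 with the coding-length offsets and 1 without lean tumours 1 and 4. The share of all genes called also moved with the setting. In the main fit 30.9% rose and 28.4% fell, and with upper quartile scaling 24.3% and 34.6% did. With 1 tumour left out at a time, 32 to 36 members rose and 3 to 7 fell, the 3 without obese replicate 4, and the median was 0.252 to 0.386. Of the 42 calls, 26 were made in the same direction in every setting, 25 rises and the fall of Rps27l, and 24 members not called were called in another setting. Rpl36 was called lower with quality weights and higher with both GC offsets, and the cause was not tested. Rpl3l turned to 0.22 without lean tumours 1 and 4. With 1 tumour left out, the difference in log2 ratio was −2.11 to −1.74 for Rpl22l1 over Rpl22, −0.86 to −0.46 for Rps27l over Rps27, 0.12 to 0.24 for Rpl7l1 over Rpl7 and −0.51 to 0.31 for Rpl39l over Rpl39. The first 3 of these passed without obese replicate 3 (exact permutation, adjusted p 0.0476). No paired analysis was possible because sample numbers in the labels are unique to a tumour. Sequence shared with pseudogenes and the unknown treatment of multiply mapped reads limit what the levels of most members can show, and depth limits Rpl39l, Rpl3l and Rpl10l.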

Other observations

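Macrophage and fibroblast markers moved in both directions. Of 8 macrophage markers 3 rose and 1 fell, with summed levels of 1603 to 2162 CPM in obese and 1241 to 3356 CPM in lean tumours. Of 7 fibroblast markers 3 rose and 2 fell (1227 to 5075 CPM in obese, 1151 to 1542 CPM in lean). Of 6 endothelial markers 2 fell and none rose, and of 6 adipocyte markers 1 fell and none rose. Of 5 neutrophil markers 4 were tested and none passed. None of the 6 skeletal muscle markers passed, nor did the 1 erythroid marker tested.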
